A study of Mus musculus with 3 samples.

Results

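The genes described here encode ligands, inhibitors and receptors of the IL-1 and IL-18 cytokine family: Il1a, Il1b, Il18, Il33, Il1rn, Il18bp, Il1r1, Il1r2, Il1rap and Il18rap. They were taken by name, with earlier results of these data known, and all 10 were among the 22238 genes listed in all 3 libraries. IL-1α and IL-1β both bind IL-1R1, which then recruits the accessory protein IL-1RAP and signals through MyD88 and IRAK kinases to NF-κB. Signaling is restrained at several points: the receptor antagonist encoded by Il1rn occupies IL-1R1, IL-1R2 captures IL-1 without signaling, and IL-18 binding protein captures IL-18. Monocytes and macrophages are a main source of IL-1β in inflamed tissue, and IL-1β and IL-18 are made as precursors that caspase-1 cleaves.

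RNA-Seq was done on wild-type C57BL/6J mice, female and 10 to 12 weeks old, all with experimental autoimmune encephalomyelitis (EAE), an induced model of multiple sclerosis. All mice had been immunized subcutaneously with myelin oligodendrocyte glycoprotein peptide in complete Freund's adjuvant and had received 250 ng of pertussis toxin intraperitoneally 2 and 24 h later. Cells were sorted on days 14 to 15. Every gate took CD45+ CD11b+ cells and left out Ly6G+ cells. Bone marrow (BM) monocytes were Ly6Chi and CD11c- and were pooled from 13 mice over 2 experiments. The spinal cord (SC) cells were CD64+ and were split into Ly6Chi monocytes and Ly6Clow/- monocyte-derived APCs (antigen-presenting cells), each pooled from 18 mice over 3 experiments. Spinal cords were digested with collagenase D and DNase I and spun on a Percoll gradient. Bone marrow was flushed from the bones, and its monocytes were enriched with an isolation kit. Every comparison of BM with SC cells therefore also compares these preparations, and their part in the differences was not tested. No unimmunized mice were included, so every library carries the immunization. One label of the APC library names the bone marrow as its source, whereas its title and tissue name the spinal cord, and it is treated here as spinal cord.

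Each population was 1 pooled library, so no difference below has a replicate check, no p-value is given, and every interval covers counting error only. Summed over the common genes, the libraries held between 26116588 and 32115707 estimated reads. TPM (a share of transcripts, corrected for length) was rescaled to the same sum in each library and is given with a 95% Wilson interval. Changes are log2 fold changes of reads with a 98% interval, and called genes are those with the whole interval beyond a 2-fold change and more than 3 TPM in 1 or both of the libraries compared. The first step below is from BM to SC monocytes, and the second from SC monocytes to APCs. All 7 monocyte markers examined, among them Ly6c2, Ccr2 and Csf1r, were over 3 TPM in every library. In RNA from pooled cells, fewer cells of a type and less RNA per cell cannot be told apart. The APC values were made on a smaller transcript set than the monocyte values, so the change on reads per effective length (the length over which reads can start) is given beside comparisons with APCs where the call differs or where only 1 of the 2 intervals holds 0.

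The 3 genes with the largest change, Il1a, Il1b and Il1rn, all lie on chromosome 2. The 150 bases before the transcription start are shown for them, since these members moved together (RefSeq sequence, GRCm38.p6, in the direction of transcription, with motif matches in capitals). The windows are chr2:129309973-129310122 on the minus strand, chr2:129371140-129371289 on the minus strand and chr2:24336710-24336859 on the plus strand, the last for the most upstream of the Il1rn starts.
Il1a: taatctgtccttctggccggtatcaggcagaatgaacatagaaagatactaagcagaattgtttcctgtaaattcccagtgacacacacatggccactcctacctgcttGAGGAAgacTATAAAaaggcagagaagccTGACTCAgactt
Il1b: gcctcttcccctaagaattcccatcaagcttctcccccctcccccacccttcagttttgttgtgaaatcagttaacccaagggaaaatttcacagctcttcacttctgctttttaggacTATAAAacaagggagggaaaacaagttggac
Il1rn: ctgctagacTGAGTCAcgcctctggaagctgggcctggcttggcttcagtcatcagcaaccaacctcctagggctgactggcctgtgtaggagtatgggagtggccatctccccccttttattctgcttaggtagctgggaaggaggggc

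The motifs were searched on both strands of the windows from 250 bases before to 50 bases after each start. The TATA box (TATAAA) began 32 bases before the start of Il1a and 31 bases before that of Il1b, and 13.6% of all 32851 promoter windows held it somewhere. The AP-1 motif (TGANTCA, whose reverse complement has the same form) began 12 bases before the start of Il1a and 141 bases before that of Il1rn. It was in 7.81% of all windows, and in these 2 of the 14 windows of the 10 members. A further Il1rn window, from 24345121 to 24345420, held no AP-1 match. Gene-level values do not tell which start the Il1rn reads came from. The PU.1 core (GAGGAA) was in the Il1a window and in 28.3% of all windows. None of the windows at the 3 starts shown held the NF-κB consensus (8.46% of all windows), the C/EBP motif TTGCNNCAA (2.08%) or the ISRE motif (3.44%). A match describes letters in the window and no binding was measured.

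From BM to SC monocytes, 7 of the 10 genes were called higher and 0 lower, where 24.4% of the 10072 genes over the TPM minimum were called and 13.8% were called higher. Il1a, Il1b, Il1rn, Il18, Il18bp, Il1r1 and Il1r2 rose. The study had already reported Il1a, Il1b, Il1rn, Il18 and Il18bp as increased in SC monocytes. The count is therefore not independent of how the genes were chosen. Il1rap and Il18rap were not called, and Il33 was under the minimum in both libraries. Of the 9 genes over the minimum, 6 were over it in both libraries and 3 (Il1a, Il18bp and Il1r1) in SC monocytes alone, so a difference in those 3 was a condition of entry.

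From SC monocytes to APCs, 1 of the 10 genes was called, Il18rap, which fell. Across all genes, 3.63% of 9734 were called in this step, 1.93% higher and 1.70% lower. On reads per effective length, 5.67% were called, 2.38% higher and 3.29% lower, and Il18rap was again the member called. Per effective length the first step had 25.1% of genes called, 14.0% higher, and Il18rap joined the 7 members called higher. From BM monocytes directly to APCs, 6 genes were called higher and 0 lower, where 25.8% of 10190 genes were called and 14.0% were called higher (27.0% and 14.3% on reads per effective length). Il18 was the gene called in the first step and not in this comparison. The 3 comparisons share libraries and are not independent of each other.

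**Figure D1:**
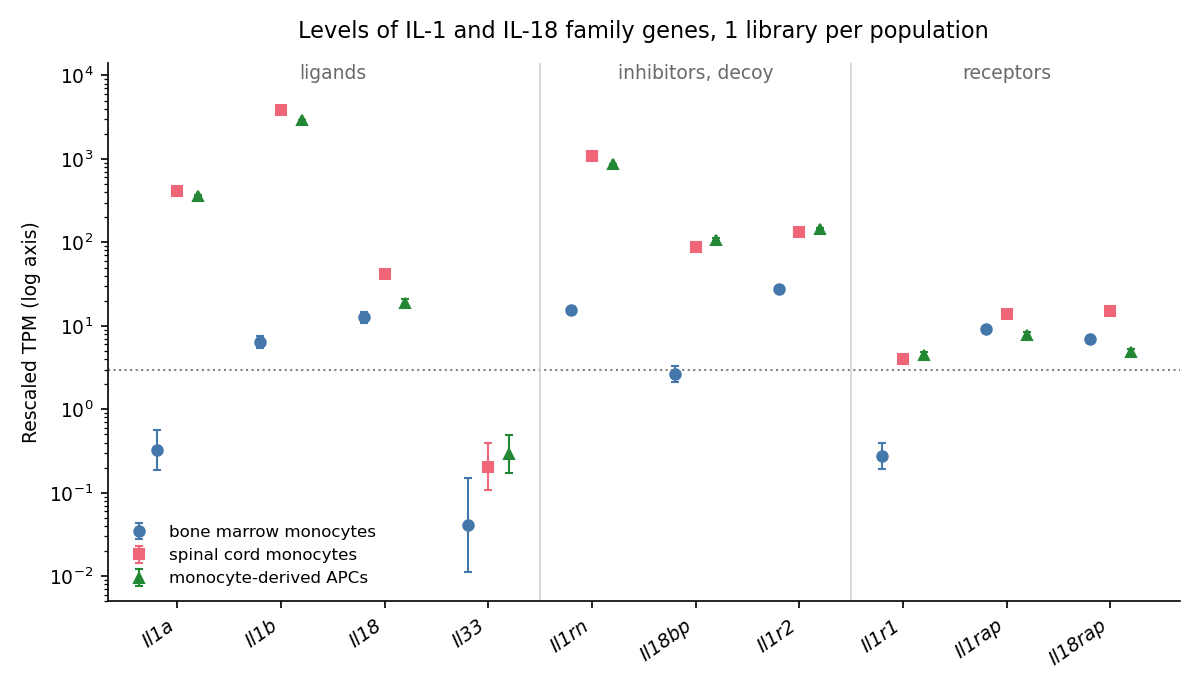
Rescaled TPM (log axis) of the 10 genes in the library of each population, with 95% Wilson intervals that cover counting error only; many are smaller than the symbols. The dotted line marks 3 TPM. Il1b, Il1rn and Il1a are the highest in both SC libraries, Il1r2 is the highest in BM monocytes, and Il33 stays under 3 TPM in all 3 libraries.

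The order of the genes by level differed between the tissues. In BM monocytes the decoy receptor gene Il1r2 led with 27.7 TPM, followed by Il1rn with 15.3 TPM and Il18 with 12.6 TPM, whose intervals meet (13.9 to 16.9 and 10.8 to 14.7). Il1rap and Il18rap followed with 9.15 and 6.99 TPM. Il1b had 6.37 TPM (95% interval 5.40 to 7.52), which did not separate from Il18rap, and Il18bp had 2.67 TPM. In SC monocytes the order was Il1b, Il1rn, Il1a, Il1r2, Il18bp, Il18, then Il18rap (15.3 TPM, 95% interval 14.3 to 16.3) and Il1rap (13.7 TPM, 12.9 to 14.6), whose intervals meet, then Il1r1 and Il33. In APCs the same first 6 genes held the same order. Il1rap came next, and Il18rap (4.82 TPM, 4.40 to 5.28) and Il1r1 (4.42 TPM, 4.02 to 4.85) did not separate. Summed over the 10 genes, TPM was 81.4 in BM monocytes, 5632 in SC monocytes and 4404 in APCs.

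Among the ligands, Il1a encodes IL-1α, which is active without cleavage and acts as an alarm signal when cells die. It had 12, 13724 and 12895 reads in BM monocytes, SC monocytes and APCs, or 0.327, 417 and 359 TPM. BM monocytes were low and both SC libraries high. On the log2 scale it rose by 10.56 (98% interval 9.71 to 11.62) in the first step, and the second-step value was -0.25 (-0.29 to -0.21). Il1b, which encodes the IL-1 that needs caspase-1, had 139, 76494 and 66848 reads, and was above 99.9% of genes by TPM in SC monocytes. It changed by 9.58 (9.30 to 9.87) and then by -0.35 (-0.37 to -0.33) on the log2 scale. The second-step intervals of both genes excluded 0 and stayed inside a 2-fold change. Relative to Il1b, TPM of Il1a was 0.0514 (98% interval 0.0254 to 0.101) in BM monocytes, 0.109 (0.107 to 0.112) in SC monocytes and 0.124 (0.121 to 0.127) in APCs.

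Il18 encodes IL-18, which acts with IL-12 on T cells and NK cells to induce interferon-γ. Its levels were 12.6 TPM in BM monocytes (164 reads), 41.9 TPM in SC monocytes (448 reads) and 18.7 TPM in APCs (240 reads). SC monocytes were the highest and the other libraries lay nearer to each other. The first step was called, at 1.93 on the log2 scale (98% interval 1.63 to 2.24). It was not called with an assumed coefficient of variation of 0.4 between libraries. The second had -1.06 (-1.33 to -0.79) and was not called, because its interval held a 2-fold change. Between BM monocytes and APCs the change was 0.87 (0.54 to 1.22). The summed TPM of 6 microglia markers was 12.8, 86.7 and 226 in the 3 libraries, with 1, 5 and 6 of them over 3 TPM. Microglia markers and Il18 were both higher in SC than in BM monocytes. In APCs the markers were highest, while Il18 was below its level in SC monocytes. The sort of the spinal cord took only cells high in CD45, a step meant to leave out microglia. The study could not exclude that a few microglia remained among the APCs. The part of microglia in the ligand levels was not tested.

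Il33 encodes IL-33, a nuclear cytokine of stromal and glial cells that is released on damage. It had 2 reads in BM monocytes, under the floor of 3 reads, 9 in SC monocytes (0.205 TPM) and 14 in APCs (0.294 TPM). These levels were low in all 3 populations, and the 98% interval of the first step ran from 0.27 to 5.11. Markers of astrocytes and oligodendrocytes summed to 75.8, 62.3 and 59.7 TPM, with 1, 5 and 5 of 8 genes over 3 TPM. Most of the bone marrow sum was Mbp, at 72.7 TPM, while Mog had 0, 4 and 3 reads. The part of glial RNA in the Il33 reads was not tested.

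The inhibitors changed as follows. Il1rn encodes the IL-1 receptor antagonist and had 405, 31602 and 29521 reads, or 15.3, 1098 and 859 TPM. Its first-step log2 fold change was 6.77 (98% interval 6.60 to 6.94), and the second was -0.25 (-0.28 to -0.23). Both spinal cord libraries stood far above the BM library. Il1rn has several starts and coding models, for secreted and intracellular forms, and its effective length was 1240, 1485 and 1649 bases in the 3 libraries. Gene-level values do not separate the forms, and divided by effective length the first step was 6.41 (6.24 to 6.58).

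Il18bp encodes the soluble binding protein that keeps IL-18 from its receptor. It had 77, 1869 and 2516 reads, or 2.67, 88.1 and 107 TPM, and was highest in APCs. The first step was a 33.6-fold rise, or 5.07 on the log2 scale (98% interval 4.70 to 5.48). The second was 0.27 (0.17 to 0.37), inside a 2-fold change. The gene shares 80 bases of exon with Numa1, which lies on the opposite strand, and the strand setting of the read assignment is not given in the sources used here. Numa1 had 4140, 1966 and 3092 reads, so it was lower in SC than in BM monocytes, opposite to Il18bp, and higher in APCs than in SC monocytes, as Il18bp was.

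Set against its own ligand within each library, the IL-1 antagonist and the IL-18 inhibitor went in opposite directions from BM to SC monocytes, as the plot of inhibitor and decoy ratios shows. The ratio of Il1rn to Il1b on TPM was 2.40 (98% interval 1.91 to 3.02) in BM monocytes, 0.287 (0.283 to 0.292) in SC monocytes and 0.296 (0.292 to 0.301) in APCs. The antagonist transcript exceeded Il1b in the bone marrow and stood below it in both SC libraries. It stayed above Il1a in all 3, with ratios of 46.7, 2.63 and 2.39. The ratio of Il18bp to Il18 was 0.212 (0.153 to 0.291), 2.10 (1.86 to 2.38) and 5.73 (4.91 to 6.72) in the same order. Il18bp was therefore below its ligand in the bone marrow, above it in SC monocytes and further above it in APCs. These are ratios of transcripts, and protein was not measured.

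**Figure D2:**
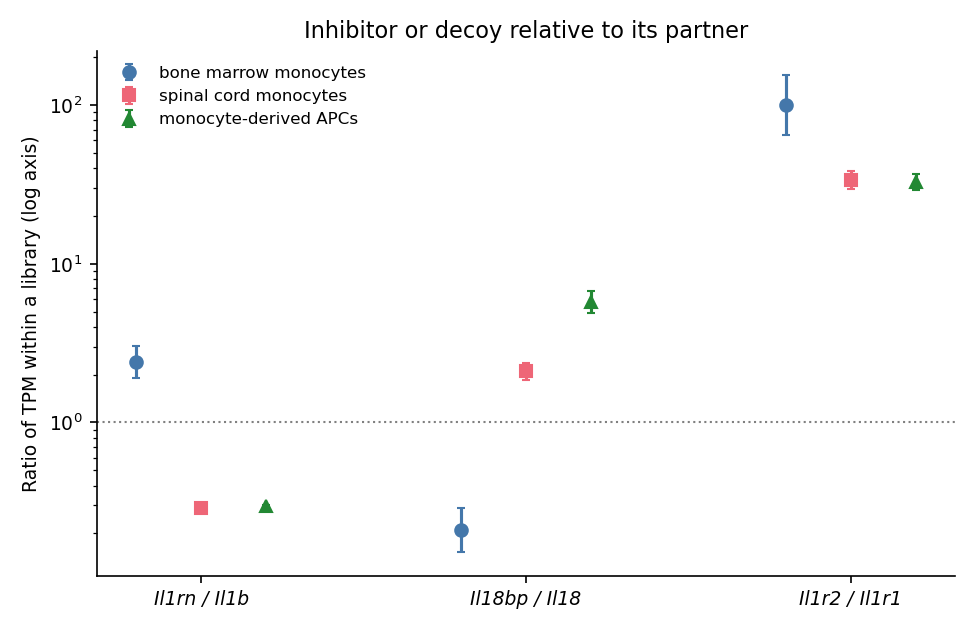
Ratio of TPM within each library (log axis) for Il1rn to Il1b, Il18bp to Il18 and Il1r2 to Il1r1, with 98% intervals from counting error. The dotted line marks equal levels. Il1rn to Il1b is 2.40 in BM monocytes and below 1 in both SC libraries, Il18bp to Il18 goes from 0.212 to 5.73, and Il1r2 exceeds Il1r1 in every library.

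The receptors were led by the decoy. Il1r2 (ENSMUSG00000026073.13) lies on chromosome 1 of GRCm38 from 40074079 to 40125231. Its longest coding model has 410 codons, against 576 for Il1r1, since IL-1R2 lacks the cytoplasmic signaling domain. Il1r2 had 659, 2636 and 2954 reads, or 27.7 TPM (95% interval 25.6 to 29.9), 133 TPM (128 to 138) and 145 TPM (140 to 150). BM monocytes were lowest, and it had the highest level of the receptor genes listed here in all 3 libraries, although its interval in BM monocytes meets that of Sigirr (23.4 TPM, 20.9 to 26.3). The rise in the first step was 5.58-fold, or 2.48 on the log2 scale (98% interval 2.34 to 2.63). An assumed coefficient of variation of 0.4 between libraries ends this call. The second step was 0.01 (-0.08 to 0.10) on reads, within counting error of no change, and 0.21 (0.12 to 0.30) on reads per effective length. Among 12 neutrophil markers, TPM summed to 8901 in BM monocytes, 1485 in SC monocytes and 1532 in APCs, and 8, 11 and 11 genes were over 3 TPM. Ly6g, the antigen used to exclude neutrophils, had 2.57, 1.71 and 1.64 TPM. From BM to SC monocytes, 7 of these markers fell, while Retnlg (3.46), Cxcr2 (2.15) and Mmp9 (1.85) rose on the log2 scale, as Il1r2 did. Most of the BM sum was S100a8, S100a9, Lcn2 and Mmp8, at 4471, 2244, 1038.5 and 707 TPM, which were among the 7. From SC monocytes to APCs, 3 markers were called higher, Ngp (2.68), Ltf (2.43) and Retnlg (1.82), and 0 lower. The part of neutrophil RNA in the level of Il1r2 was not tested.

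Il1r1 (ENSMUSG00000026072.12), the signaling receptor of IL-1, lies next to Il1r2 on chromosome 1, from 40225080 to 40317257. It had 29, 344 and 437 reads, or 0.278 TPM (95% interval 0.194 to 0.399), 3.96 TPM (3.56 to 4.40) and 4.42 TPM (4.02 to 4.85). The BM library was low, and the SC libraries were just over the minimum of 3 TPM, so that a minimum of 4 TPM ends the first call. The first step was a 16.2-fold rise, or 4.02 on the log2 scale (98% interval 3.42 to 4.71). The second was 0.19 (-0.05 to 0.43) on reads, an interval that holds 0, and 0.24 on reads per effective length, with a lower bound just above 0 and an upper bound of 0.48. The ratio of the decoy Il1r2 to Il1r1 on TPM was 99.5 (98% interval 64.7 to 155) in BM monocytes, 33.6 (29.4 to 38.4) in SC monocytes and 32.8 (29.1 to 37.0) in APCs. Endothelial cells also carry IL-1R1, and 8 endothelial markers summed to 11.4, 56.4 and 36.9 TPM. Of these, 1, 4 and 3 were over 3 TPM, and Cldn5 had 0, 256 and 137 reads. Their sum and Il1r1 were both lowest in BM monocytes. The sum was higher in SC monocytes than in APCs, where Il1r1 had 4.42 TPM against 3.96, and the part of endothelial RNA was not tested.

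**Figure D3:**
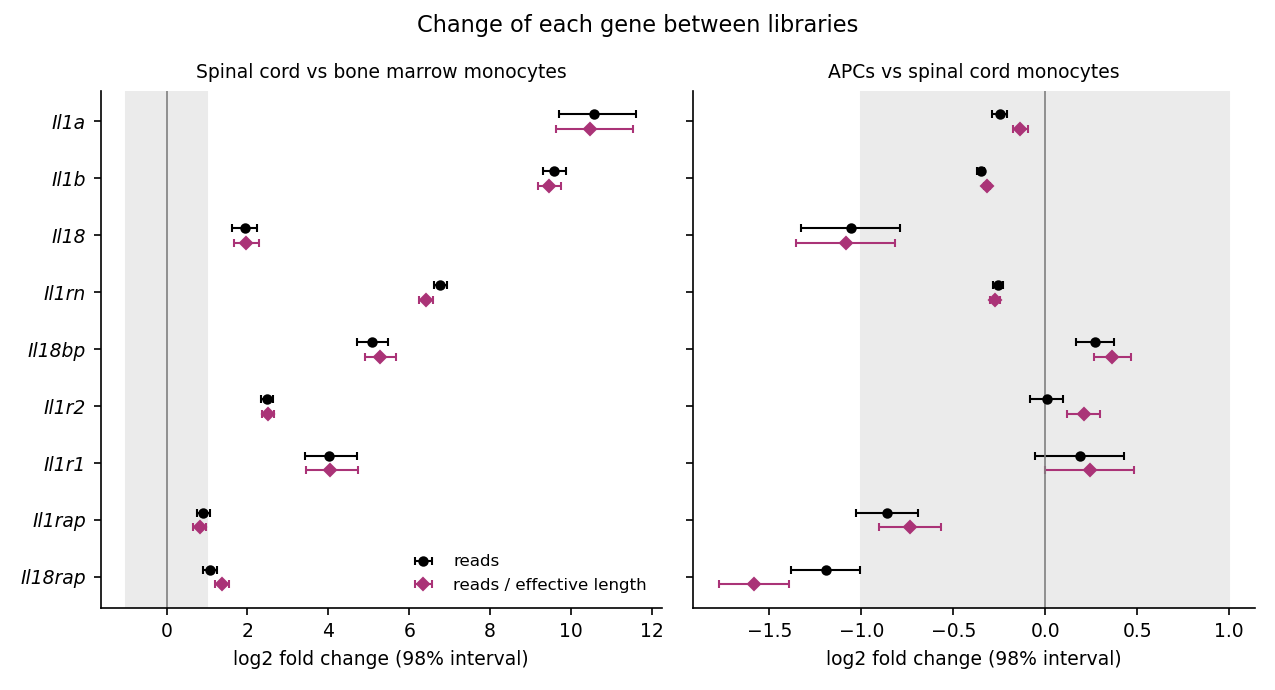
Log2 fold changes with 98% intervals (counting error only) of 9 genes from BM to SC monocytes (left) and from these to APCs (right), on reads (circles) and on reads per effective length (diamonds). The grey band spans a 2-fold change either way, and the axes differ in range. On the left both intervals of the inhibitor and ligand genes and of Il1r2 and Il1r1 lie wholly beyond the band. That of Il18rap does so on reads per effective length only. On the right both intervals of Il18rap lie wholly beyond it, while both Il18 points lie beyond it with intervals that cross its edge.

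The shared subunit and the IL-18 receptor subunit had smaller differences, with SC monocytes the highest for both. Il1rap encodes the accessory protein that IL-1R1, the IL-33 receptor and the IL-36 receptor need for signaling, and soluble forms of it also exist. It lies on chromosome 16 from 26581704 to 26730117. It had 770, 1030 and 633 reads, or 9.15, 13.7 and 7.77 TPM. The first step was 0.90 (98% interval 0.74 to 1.06) and the second -0.86 (-1.03 to -0.69) on the log2 scale, and neither was called. APCs and BM monocytes did not separate on reads, with 0.04 (-0.14 to 0.22). Relative to the ligand-binding chain Il1r1, TPM of Il1rap was 32.9 in BM monocytes, 3.46 in SC monocytes and 1.76 (98% interval 1.52 to 2.03) in APCs. Both chains needed for IL-1 signaling had reads in all 3 libraries, with the accessory chain at the higher level. In BM monocytes Il1r1 had 29 reads and 0.278 TPM, under the minimum of 3 TPM.

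Il18rap (ENSMUSG00000026068.11) encodes the IL-18 receptor accessory protein, the chain that makes the IL-18 receptor signal. It had 630, 956 and 466 reads, or 6.99 TPM (95% interval 6.46 to 7.55), 15.3 TPM (14.3 to 16.3) and 4.82 TPM (4.40 to 5.28). SC monocytes were highest, and APCs were lowest on TPM. The first step was 1.08 (98% interval 0.91 to 1.26) and not called on reads, and 1.37 (1.20 to 1.54) and called on reads per effective length. The second step was -1.19, with a lower bound of -1.38 and an upper bound at the edge of the call, which TMM factors or total reads in place of the size factors end. Divided by effective length it was -1.58 (-1.77 to -1.39). The effective length was 4222 bases in BM monocytes, 3228 bases in SC monocytes and 4639 bases in APCs, so the size of both steps depends on the transcripts used. Between BM monocytes and APCs the value was -0.11 (-0.31 to 0.10) on reads and -0.21 (-0.42 to -0.01) on reads per effective length, whose interval does not hold 0.

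Il18rap is a gene of T cells and NK cells too. Their 13 markers summed to 4.48 TPM in BM monocytes, 76.2 TPM in SC monocytes and 117 TPM in APCs, with 1, 8 and 10 of them over 3 TPM. Cd3e had 1, 138 and 285 reads and Ncr1 had 0, 0 and 3. From BM to SC monocytes the marker sum and Il18rap both went up on TPM, Il18rap from 6.99 to 15.3 TPM. The marker sum was highest in APCs, where Il18rap had its lowest TPM. On reads, Il18rap did not separate between APCs and BM monocytes. The part of T and NK cell RNA in the spinal cord levels of Il18rap was not tested.

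**Figure D4:**
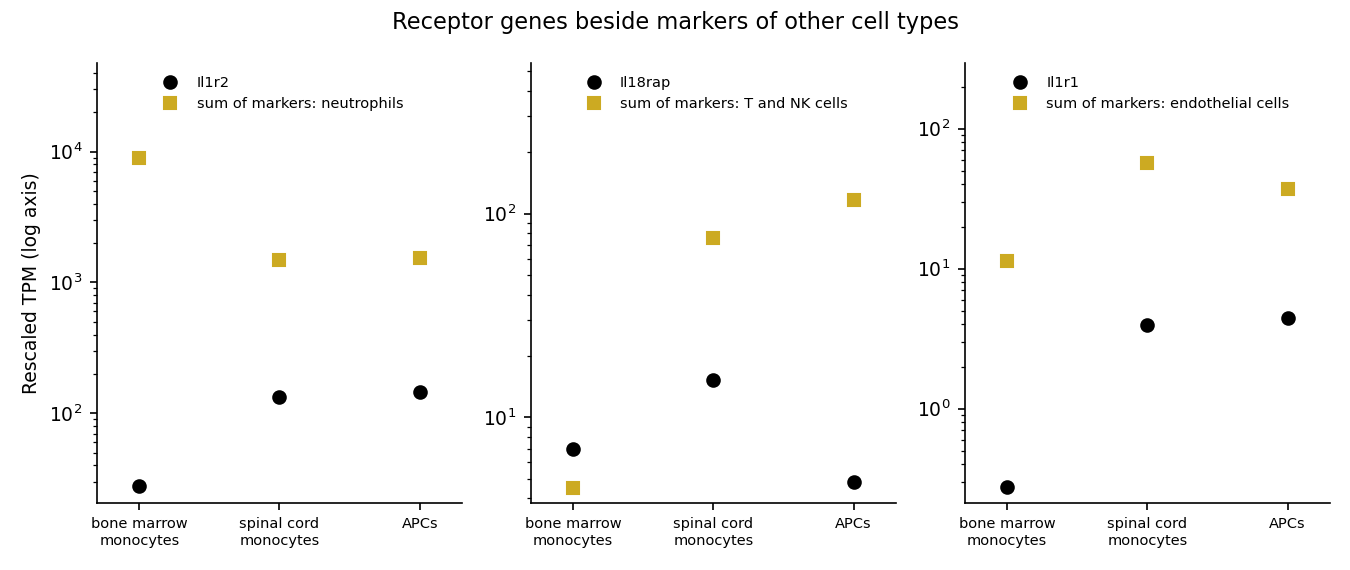
Rescaled TPM (log axes, which differ between panels) of Il1r2, Il18rap and Il1r1 (circles) and the summed TPM of markers of neutrophils, of T and NK cells and of endothelial cells (squares) in the 3 libraries. Il1r2 is lowest where the neutrophil sum is highest (8901 TPM), of which S100a8 alone makes 4471 TPM. Of the neutrophil markers, 7 fell from BM to SC monocytes and 3 rose, as Il1r2 did. On TPM, Il18rap and the T and NK cell sum are both higher in SC than in BM monocytes. Il18rap has its lowest TPM in APCs, where that sum is highest (117 TPM). Il1r1 and the endothelial sum are both lowest in BM monocytes. The part of RNA from these cell types was not tested.

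Of 11 other family genes listed in all libraries, 3 were over the TPM minimum, and in the first step Il1rl2 and Il1f9 rose and Sigirr fell (24.4% of all genes were called). Total reads in place of the size factors end the call of Il1f9 (1.27), and an assumed coefficient of variation of 0.4 between libraries ends all 3. Il1rl2, the IL-36 receptor, had 378, 1053 and 1564 reads, or 5.75, 17.0 and 28.6 TPM. Its first-step log2 fold change was 1.96 (98% interval 1.76 to 2.16). The second was 0.41 (0.28 to 0.55) on reads and 0.83 on reads per effective length. Il1f9, which encodes its ligand IL-36γ, had 7.38, 16.2 and 8.34 TPM, with 1.45 (1.18 to 1.73) and then -0.98 (-1.25 to -0.71). Sigirr, a receptor that restrains IL-1 and Toll-like receptor signaling, had 296, 64 and 82 reads, or 23.4, 4.78 and 6.04 TPM. It was highest in BM monocytes and fell by 1.72 on the log2 scale (98% interval -2.19 to -1.27) in the first step, and the second was 0.20 (-0.36 to 0.76).

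The ligand-binding chain of the IL-18 receptor, Il18r1, had 7, 144 and 200 reads, or 0.122, 2.58 and 2.92 TPM, and was under the minimum throughout. In BM monocytes Il18rap thus had 6.99 TPM while its partner chain was near the floor. The IL-33 receptor gene Il1rl1 had 11, 45 and 81 reads, or 0.105, 0.498 and 2.03 TPM, also under the minimum. Its second-step value was 0.68 on reads and 2.09 on reads per effective length. Of 8 mast cell and basophil markers, only Kit reached 3 TPM, in APCs (6.92 TPM), and Mcpt4 had 0 reads in all 3 libraries. Kit had 22, 87 and 718 reads and Gata2 6, 25 and 33, both rising as Il1rl1 did, while Mcpt8 had 19, 1 and 1. The part of mast cell and basophil RNA in the Il1rl1 reads was not tested. Il1f6 had 1, 3 and 3 reads, Il1rapl1 0, 1 and 0, and Il1rapl2 0, 12 and 0. Il1f5, Il1f8 and Il1f10 had 0 reads in every library, at which counting allows up to 3 reads. Il36rn, Il36a, Il36b and Il36g are other names of listed genes and matched no row.

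The genome order of the receptors was compared with their levels, since 6 of them lie side by side on the plus strand of chromosome 1. From 40074079 to 40551705 the order is Il1r2, Il1r1, Il1rl2, Il1rl1, Il18r1 and Il18rap. Levels did not follow position: in SC monocytes TPM along the cluster was 133, 3.96, 17.0, 0.498, 2.58 and 15.3. The genes at both ends and Il1rl2 were over 3 TPM in all 3 libraries, and Il1rl1 and Il18r1 in none. The first-step log2 fold changes along the cluster were 2.48, 4.02, 1.96, 2.45, 4.72 and 1.08, so all 6 were higher in SC monocytes by value, of which Il1r2, Il1r1 and Il1rl2 were called. The second-step values were 0.01, 0.19, 0.41, 0.68, 0.32 and -1.19, with Il18rap the only gene of the cluster below 0.

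**Figure D5:**
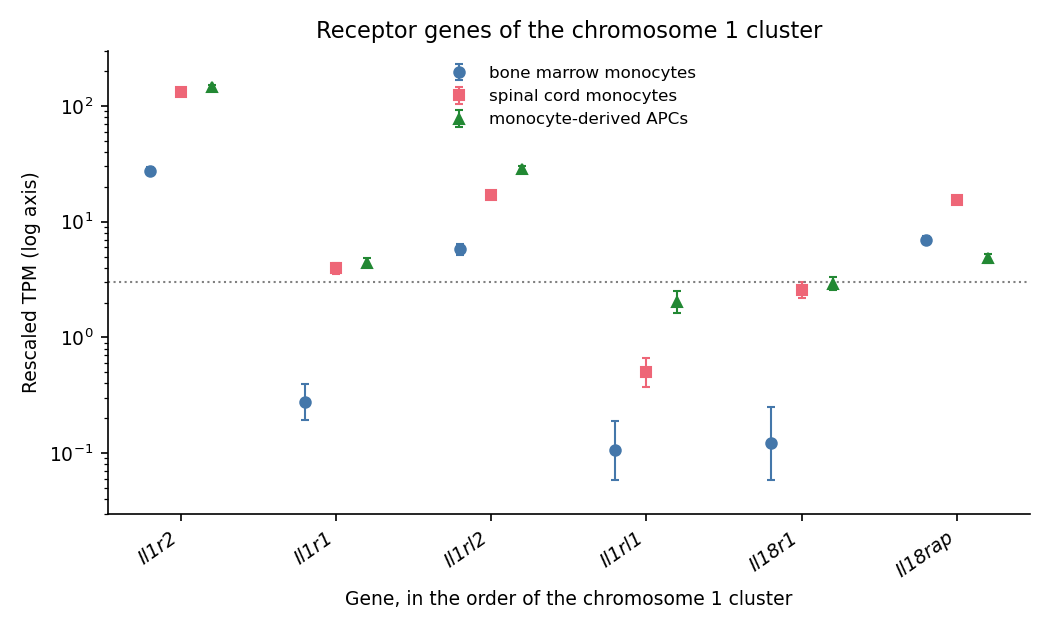
Rescaled TPM (log axis) with 95% Wilson intervals for the 6 receptor genes of the chromosome 1 cluster, in genome order from left to right, in the library of each population. The dotted line marks 3 TPM. Il1r2, at the left end, is highest in every library, and Il18rap, at the right end, has its lowest TPM in APCs.

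Genes that act before and after the receptors were counted from lists. Of 26 genes of receptor signaling, 25 were over the minimum in the first step, 7 were called higher and 0 lower (13.8% and 10.7% over all genes tested), and the median log2 fold change was 0.17, against -0.15 over all genes tested. The adaptor gene Myd88 (0.05) and the kinase genes Irak1 (-0.17) and Irak4 (-0.86) were not called, and were picked out after their values were seen. The 7 were Tnfaip3, Nfkbiz, Zc3h12a (3.87), Nfkbia, Irak2 (2.62), Map3k8 (2.06) and Traf6 (1.55), of which the last 3, a kinase, another kinase and a ubiquitin ligase, pass the signal on. Zc3h12a, Irak2, Map3k8 and Traf6 are named here after their values were seen. Nfkbia, encoding the NF-κB inhibitor IκBα, had 167, 1422 and 873 TPM and a first-step log2 fold change of 3.42 (98% interval 3.37 to 3.48). Tnfaip3, encoding the ubiquitin-editing enzyme A20, had 13.2, 555 and 415 TPM, and Nfkbiz, encoding IκBζ, 15.4, 254 and 173 TPM, with 5.86 and 4.37 on the log2 scale. From SC monocytes to APCs 0 of the 25 were called in either direction on reads and 2 lower (Chuk and Irak2, named after their values were seen) on reads per effective length, and the median was -0.32, against -0.04 over all genes.

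Of 21 genes of precursor processing and release, all were over the minimum in the first step, with 5 called higher and 2 lower (13.8% and 10.7% over all genes) and a median of 0.18, against -0.15 over all genes. Nlrp3, the inflammasome sensor, had 41.2, 204 and 120 TPM and rose by 2.54 (98% interval 2.47 to 2.61) on the log2 scale. Ninj1, which mediates membrane rupture of dying cells, had 84.6, 275 and 192 TPM and rose by 1.97. The 2 that fell were Capn2, a calpain subunit, from 179.9 to 47.2 TPM and Gsdme, a gasdermin, at 11.8 TPM in BM monocytes and 1.89 TPM in APCs (-2.07 in the first step). Casp1, encoding the protease that cleaves pro-IL-1β and pro-IL-18, had 94.3, 88.9 and 74.1 TPM and was not called in either step, with 0.18 (98% interval 0.08 to 0.28) and -0.46 (-0.57 to -0.35). It was picked out after its values were seen. In the second step 1 of 20 was called (3.63% over all genes), Mefv, encoding the inflammasome sensor pyrin, which fell from 71.3 to 18.1 TPM with -2.01 (98% interval -2.13 to -1.89).

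Genes whose pattern was most like each member were found by the distance of log2(TPM + 1), centred on the mean of the 3 libraries, among 10307 genes over 3 TPM in at least 1 library. With 3 libraries many genes share a pattern, and the nearest gene says nothing of shared function. The added 1 flattens changes at low TPM, so a small distance there does not mean an equal fold change. Il1r1 was nearest to Cd1d1 (distance 0.00435) and C4b (0.00530), and Il18rap to Dgat2 (0.00649) and Map2k3 (0.0866). From BM to SC monocytes Il1r1 went from 0.278 to 3.96 TPM, and Cd1d1 from 8.25 to 34.8 TPM. Il1r2 was nearest to Gm21798 (0.0301) and Palld (0.0479) and Il1rap to Zfp263 (0.0313) and Kcnj2 (0.0326). Il18bp was nearest to Sgk1 (0.0465), Il18 to Iqsec1 (0.0514) and Il1rn to Hcar2 (0.0739). Il1a and Il1b had the most distant neighbours, Vegfa (0.196) and Ccl5 (0.213).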

How the data were processed

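RNA-Seq of 3 libraries, 1 per population, was analysed. Per the submitters' processing notes and the study's methods, the authors ran Salmon 0.14.1 on GENCODE vM22 transcripts, build mm10, pooling the transcripts of a gene. The deposited TPM carry the authors' correction for effective length and depth, whereas the deposited estimated counts of reads are not normalized. Effective lengths were deposited beside them. No other sample's columns were used. Counts were rounded to whole reads over the 22238 common genes, of which 99.0% had the same identifier and version in GENCODE M21 (GRCm38), the source of symbols and positions.

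Libraries were scaled by median-of-ratios factors over all 3. Log2 ratios between libraries were summarised by the median and by percentiles 1 and 99 of their posterior, with each library's rate taken as gamma distributed with a shape of its reads plus 1. The call follows the study's GFold definition computed anew, and its threshold of 2 on log2 TPM was read as log2 of TPM plus 1. The counts differ from the study's. In the first step the study reported more genes down than up, whereas here 1386 were called higher and 1073 lower. In the second step more genes were called here in each direction. The calculation was tested on simulated data. A floor was 3 reads. With 1 library per population no test of the conditions could be made.

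All members and the other family genes are named, together with, from the 2 pathway lists, the most abundant called gene and the 2 called genes with the largest interval bound in each direction. For each member over the minimum, up to 2 genes nearest in pattern are named. The members and lists were chosen with earlier results of these data known. Alternatives were total reads, TMM factors, reads per effective length, other TPM minimums, an assumed spread between libraries, a plain 2-fold change, 0.5 reads added, TPM with a pseudocount of 1 or 0.1, TPM as deposited and all genes of the monocyte libraries. The software was edgeR 4.0.16 in R 4.3.3 (TMM only) and Python 3.11.15 with scipy 1.17.1, numpy 2.4.6, matplotlib 3.10.9 and pandas 2.3.3.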

Additional observations from a re-analysis of the deposited data

Results flagged for a closer look

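Reads of antisense genes overlapping the ligand genes were present in the monocyte libraries, in genes the comparisons did not use because the APC values do not list them. Il1bos, which lies opposite Il1b and shares 25 bases of exon with it, had 5 reads in BM monocytes and 84 in SC monocytes, above the floor of 3 reads. Gm14023, opposite Il1a with 222 shared bases, had 13 reads in BM monocytes and 13 in SC monocytes. In the bone marrow these 13 reads compare with 12 of Il1a itself. The strand setting is not given in the sources used here, so reads that fall within the shared bases cannot be told apart between a gene and its antisense partner.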

How the results depend on the processing

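The number of members called was 7 from BM to SC monocytes, between 5 and 8 under the alternatives, and 6 from BM monocytes to APCs, between 5 and 6. From SC monocytes to APCs it was 1, but 0 with total reads, with TMM factors and with an assumed coefficient of variation of 0.4, and 2 with a plain 2-fold change and with TPM at a pseudocount of 1 or 0.1, which add Il18. With the assumed variation Il18 and Il1r2 were not called in the first step, nor were Il1f9, Il1rl2 and Sigirr, and Il1f9 was not called with total reads. No called value changed sign under any alternative run. Over all genes, 3801 were called in the first step without a TPM minimum and 801 with the assumed variation, in place of 2459. In the second, 552 were called on reads per effective length, 677 without a minimum, 50 with the assumed variation, 628 with a plain 2-fold change, and 802 and 968 on TPM with a pseudocount of 1 and 0.1, in place of 353. From BM monocytes to APCs these were 4203 without a minimum, 891 with the assumed variation and 4063 at a pseudocount of 0.1, in place of 2625. The split of the first step, 1386 higher and 1073 lower, became 1371 and 1587 with all genes of the monocyte libraries and 1315 and 1890 on TPM with a pseudocount of 1. That of the second, 188 and 165, became 232 and 320 on reads per effective length and 274 and 528 on TPM with a pseudocount of 1. From BM monocytes to APCs, 1426 higher and 1199 lower became 1315 and 2433 on TPM with a pseudocount of 1. Total reads shifted all log2 ratios of the first step by -0.18. TPM as deposited summed over the members to 69.2 in BM monocytes and 4804 in SC monocytes. The cause of these changes was not tested. No paired analysis was possible because each population has 1 library, and none could be left out. Depth limits Il33, Il18r1 and Il1rl1, and Il1a and Il1r1 in the bone marrow.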
